A study of Homo sapiens with 6 samples.

Results

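The mitochondrial ribosomal proteins were examined as a group of 78 genes in neuroblastoma cell cultures. Members were the protein-coding genes, of 60651 genes counted, with a symbol that starts with MRPL or MRPS followed by a digit. By symbol, 49 belonged to the large subunit of the mitochondrial ribosome (MRPL) and 29 to the small subunit (MRPS). A further 86 of the 164 genes with such symbols, which are pseudogenes, antisense RNAs and other genes that are not protein-coding, were left out. No member differed between the treatment groups past the threshold. The levels of the members ranged from 0.157 to 158.8 TPM, a level scaled for exon length and depth. Their order followed the GC content of their exons, as it did less closely in protein-coding genes, and the cause was not tested.

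Mitochondria carry their own ribosome, which makes a few hydrophobic subunits of the respiratory chain from messages of the mitochondrial genome. Its RNAs come from the mitochondrial genome, whereas all of its proteins are encoded in the nucleus, made in the cytosol and imported. The small subunit binds and decodes the message, and the large subunit joins the amino acids and releases the chain towards the inner membrane. Some of these proteins have bacterial relatives, and the others are found in mitochondria only. MYC proteins are known to raise genes of mitochondrial biogenesis, and MYCN is the MYC family member that drives a part of neuroblastomas.

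Total RNA, depleted of ribosomal RNA, had been sequenced from 6 cultures, 3 with titles naming EtOH (ethanol, a common solvent of tetracycline) and 3 with titles naming Tet (tetracycline), which was given for 5 days per the labels. The titles name the *MYCN*-amplified line IMR575, whereas the protocol text describes SK-N-SH cells with a tetracycline repressor and a *MYCN* expression system, kept as single clones under G418-BC and blasticidin. A tag reads knockdown with the value Control or Induction. In the study's methods, *MYCN* could be induced in SK-N-AS cells and silenced by an inducible shRNA in IMR-5/75 cells, so the genotype that both groups share could not be settled, and groups were taken from the titles.

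Libraries held between 27933378 and 40498065 estimated counts per sample, and 3 counts corresponded to between 0.0741 and 0.107 CPM, which are counts scaled to the library total by TMM. *MYCN* itself was at 190.0 ± 57.4 CPM under the EtOH label and 180.7 ± 30.6 CPM under the Tet label (SD, n = 3 each), with a log2 fold change of -0.07 and an adjusted p of 0.956 in edgeR. A difference of *MYCN* between the labels was not detected, so every direction given here compares labels only. Markers of noradrenergic neuroblastoma summed to between 556 and 656 CPM under EtOH and to between 656 and 779 CPM under Tet, although *TH* had no count in 5 libraries and *DBH* reached at most 0.453 CPM. Of the 6 of them tested, 4 were higher in all Tet libraries, with log2 fold changes of 0.36 for *GATA3*, 1.40 for *PHOX2A* and 2.18 for *CHGA*, and *ISL1* between the first 2 of these. In Tet replicates 1, 2 and 3, *CHGA* (61.1% GC) was at 1.63, 2.23 and 7.88 CPM. *PHOX2A* (66.1% GC) was at 7.27, 9.14 and 23.4 CPM there, so both values lean on Tet replicate 3. *GATA3* and *ISL1* were highest in Tet replicate 2. The median of the noradrenergic list was 0.77, with 0 called. Immune markers summed to at most 1.02 CPM and endothelial ones to at most 0.112 CPM. Epithelial markers summed to between 0.744 and 1.08 CPM under EtOH and to between 2.24 and 2.66 CPM under Tet, with *KRT8* and *KRT18* at or near 0, and markers of the mesenchymal state or of fibroblasts to between 256 and 480 CPM, with *COL1A2* at 0 in all libraries. Of the latter, *PRRX1* was lower (-1.02) and *COL3A1* higher (1.03) in all Tet libraries, with 0 called. Several cell-state markers thus differed in level with the label, although none was called. Their part in the results was not tested, and in such bulk samples fewer cells of a type and less RNA per cell cannot be told apart.

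The base composition of the members differed widely, and because the levels followed it, 4 stretches of coding sequence are shown first, 2 from highly expressed members with few G and C bases and 2 from members near the detection floor with many. Each line holds the first 120 bases of the longest coding exon of the gene, 5′ to 3′ on the coding strand of GRCh38, with G and C in capitals. *MRPL1*, a relative of bacterial L1 near the exit of tRNA, is at chr4:77883242-77883361 (plus strand, exon 3, 39 G or C bases), and *MRPL41*, a mitochondria-specific protein of the large subunit, at chr9:137552082-137552201 (plus strand, exon 2, 91 G or C bases). *MRPS35*, a mitochondria-specific protein of the small subunit, is at chr12:27755181-27755300 (plus strand, exon 8, 45 G or C bases), and *MRPS12*, the relative of bacterial S12 beside the decoding site, at chr19:38932333-38932452 (plus strand, exon 3, 88 G or C bases).
MRPL1: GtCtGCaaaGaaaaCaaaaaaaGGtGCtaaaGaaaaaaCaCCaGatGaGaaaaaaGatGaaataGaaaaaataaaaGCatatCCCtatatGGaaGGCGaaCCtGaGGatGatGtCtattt
MRPL41: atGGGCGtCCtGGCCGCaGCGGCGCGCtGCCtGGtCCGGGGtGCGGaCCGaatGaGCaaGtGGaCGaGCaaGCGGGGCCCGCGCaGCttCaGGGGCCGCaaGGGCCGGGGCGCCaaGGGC
MRPS35: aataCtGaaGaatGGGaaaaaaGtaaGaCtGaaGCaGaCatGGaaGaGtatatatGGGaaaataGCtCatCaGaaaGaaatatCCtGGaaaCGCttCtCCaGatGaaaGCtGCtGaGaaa
MRPS12: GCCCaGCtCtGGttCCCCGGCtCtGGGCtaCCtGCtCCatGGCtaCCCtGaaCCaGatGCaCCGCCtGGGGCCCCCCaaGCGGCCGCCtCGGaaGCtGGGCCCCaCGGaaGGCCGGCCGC
None of these 4 genes shares exon bases with another gene in the annotation. Over all coding bases, the GC content was 38.4% in *MRPL1* and 65.7% in *MRPL41*, 43.3% in *MRPS35* and 65.2% in *MRPS12*.

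Levels between genes are compared in TPM, for which the counts of a gene are divided by its exon length and each library is scaled to a common total. *MRPL1* had 47.9, 101.5 and 56.8 TPM in EtOH replicates 1, 2 and 3, and 70.3, 78.1 and 55.6 TPM in Tet replicates 1, 2 and 3. *MRPL41* had estimated counts of only 1, 1 and 0 in the EtOH libraries and 0, 7 and 13 in the Tet libraries, a mean of 0.434 TPM. The 2 levels were thus far apart in every library, and counting error is large for *MRPL41*. *MRPS35* had a mean of 100.4 TPM and *MRPS12* one of 0.194 TPM, the latter from counts of 2, 5 and 6 under EtOH and 0, 9 and 2 under Tet. *MRPS12* was the member of the small subunit with the lowest level.

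Across all 78 members, the mean level was lower where the GC content of the exons was higher, with a Spearman correlation of -0.80 and a Pearson correlation of -0.81 with the logarithm of the level. The points share the same 6 libraries and the same counting, and the coefficients are given as a description. The coefficient was -0.80 in the large subunit (n = 49) and -0.79 in the small one (n = 29), and it was similar in the 50 members with at most 10% of their exon bases inside another gene (-0.79). Over 19946 protein-coding genes, of which 12830 passed the filter on low counts, the same coefficient was -0.45. With the GC content of the coding bases alone it was -0.77 over the members. Exon length followed the level much less (0.17 over the members, 0.38 over protein-coding genes).

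**Figure D1:**
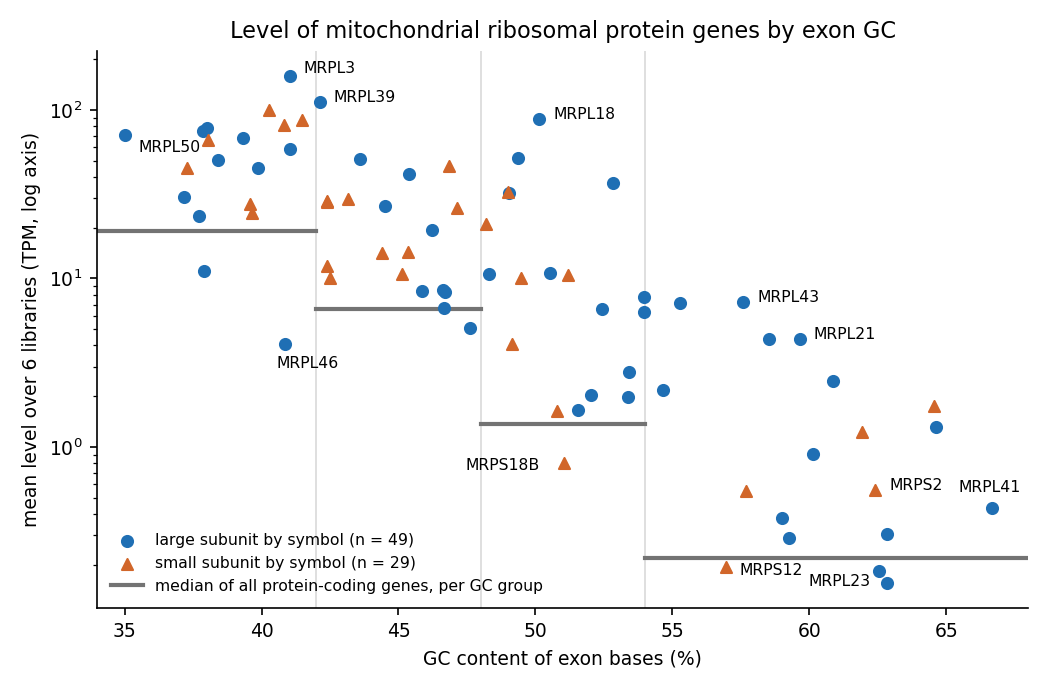
Each point is 1 of the 78 members, with the GC content of its exon bases in percent on the x axis and its mean level over the 6 libraries in TPM on a log y axis (circles, large subunit; triangles, small subunit; grey bars, median of all protein-coding genes in each GC group). Levels fall from 158.8 TPM for *MRPL3* on the left to 0.157 TPM for *MRPL23* on the right, and members lie mostly above the grey bars.

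Members were divided into 4 groups by exon GC, with limits chosen after the values had been seen. The 19 members under 42% GC had a median of 58.7 TPM, the 20 between 42% and 48% a median of 16.97 TPM, the 20 between 48% and 54% a median of 8.87 TPM, and the 19 with at least 54% a median of 0.909 TPM. The median of protein-coding genes in the same groups was 19.1, 6.56, 1.36 and 0.221 TPM. The median of the members was thus higher in each GC group, while both medians fell with GC. Whether expression or the recovery of GC-rich RNA in the libraries lowers the levels of members rich in GC was not tested. All members under 54% GC passed the filter on low counts, against 13 of the 19 with more. Of the protein-coding genes, 78.4%, 73.2%, 64.1% and 48.1% passed it in the 4 groups. Their medians thus include many genes with few counts.

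The highest level in the large subunit was that of *MRPL3*, a relative of bacterial L3 that reaches towards the catalytic centre, with a mean of 158.8 TPM, higher than 98.4% of protein-coding genes. It was followed by *MRPL39* (110.9 TPM), *MRPL18* (88.8 TPM), which belongs to the family of proteins that hold the small ribosomal RNA of the large subunit in bacteria, and *MRPL47* (77.8 TPM). *MRPL18* stood out for its GC content of 50.1%, since the next highest member over 48% GC was *MRPL51* at 51.7 TPM. It ranged from 61.4 to 98.7 TPM in 5 libraries and was at 155.9 TPM in EtOH replicate 2. The lowest levels were those of *MRPL54* (0.184 TPM) and *MRPL23* (0.157 TPM), a relative of the bacterial protein at the exit of the peptide tunnel.

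In the small subunit, *MRPS35* (100.4 TPM), *MRPS10* (87.3 TPM), *MRPS14* (80.8 TPM) and *MRPS30* (66.4 TPM) led. *MRPS10* and *MRPS14* have bacterial relatives in the head of the small subunit. *MRPS30* carries a small subunit name but sits in the large subunit in structures of the mammalian mitochondrial ribosome, as does *MRPS18A*. The 3 relatives of bacterial S18 were at very different levels, with means of 0.548 TPM for *MRPS18A* (57.7% GC), 0.808 TPM for *MRPS18B* (51.1% GC) and 45.3 TPM for *MRPS18C* (37.3% GC). *MRPS18C* shares 40.2% and *MRPS18A* 50.9% of exon bases with a neighbouring gene, so a part of their counts may be the neighbours'.

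The main comparison asked whether members differed between Tet and EtOH. Of the 78 members, 72 passed the filter on low counts (44 of the large and 28 of the small subunit). None was called in either direction by edgeR at an adjusted p under 0.05, beside 53 of 22443 genes in all (0.236%). At an unadjusted p under 0.05 there were 4 members, 5.56% of those tested, against 10.8% of all genes. DESeq2 and limma-voom also called none, with 3 and 4 members at an unadjusted p under 0.05, whereas edgeR with the replicate number as a block called 1, *MRPS27*. Over all 22443 genes, the fit with the block called 421 higher and 254 lower, many more than the main fit. The study's methods give 3 independent biological replicates for cell experiments unless stated otherwise, while the labels do not say how these cultures were separated. With 3 cultures in each group, the p-values measure the spread between the libraries.

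*MRPS27*, a mitochondria-specific protein of the small subunit with pentatricopeptide repeats (chr5:72219403-72320646), had the smallest p-value among the members. It was at 75.4, 101.2 and 80.7 CPM in the EtOH libraries and at 55.3, 60.3 and 49.8 CPM in the Tet libraries. All Tet libraries were thus lower than all EtOH libraries. The means were 85.8 ± 13.6 and 55.1 ± 5.24 CPM (SD, n = 3 each), with a log2 fold change of -0.64 (SE 0.17) and an adjusted p of 0.197 in edgeR. With the replicate number as a block, the log2 fold change of *MRPS27* was -0.63 and passed the threshold with an adjusted p of 0.030 in edgeR, within a range of 0.030 to 0.60 over all settings. The labels do not say whether equal numbers pair the cultures. Only 2.92% of its exon bases lie inside another gene.

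*MRPS23*, another mitochondria-specific protein of the small subunit (chr17:57834781-57850056), was at 31.4, 25.5 and 28.9 CPM under EtOH and at 21.1, 21.1 and 22.1 CPM under Tet. The groups did not overlap, and the Tet libraries lay close together. The log2 fold change was -0.42 (SE 0.16, adjusted p = 0.388 in edgeR). *MRPL3* (chr3:131462212-131502983) had 172.3, 193.8 and 164.0 CPM under EtOH and 129.3, 152.9 and 132.4 CPM under Tet, again without overlap. Its log2 fold change was -0.35 (SE 0.15, adjusted p = 0.432 in edgeR).

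The fourth member at an unadjusted p under 0.05 lay in the other direction and at the detection floor. *MRPS2*, the relative of bacterial S2 (chr9:135499984-135504673, 62.4% GC), had estimated counts of 10.5, 8.5 and 6.5 in the EtOH libraries and of 15, 15.5 and 52.5 in the Tet libraries. Its log2 fold change was 1.58 (SE 0.56, adjusted p = 0.354 in edgeR), and 0.93 without Tet replicate 3. *MRPS14* was the only other member with all Tet libraries higher, at 72.7, 62.3 and 76.0 CPM under EtOH and 82.6, 76.6 and 94.3 CPM under Tet (log2 fold change 0.26, SE 0.15, adjusted p = 0.607 in edgeR). *MRPS14* shares 14.9% of its exon bases with *CACYBP*, and *MRPS2* 14.4% with 2 other genes.

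**Figure D2:**
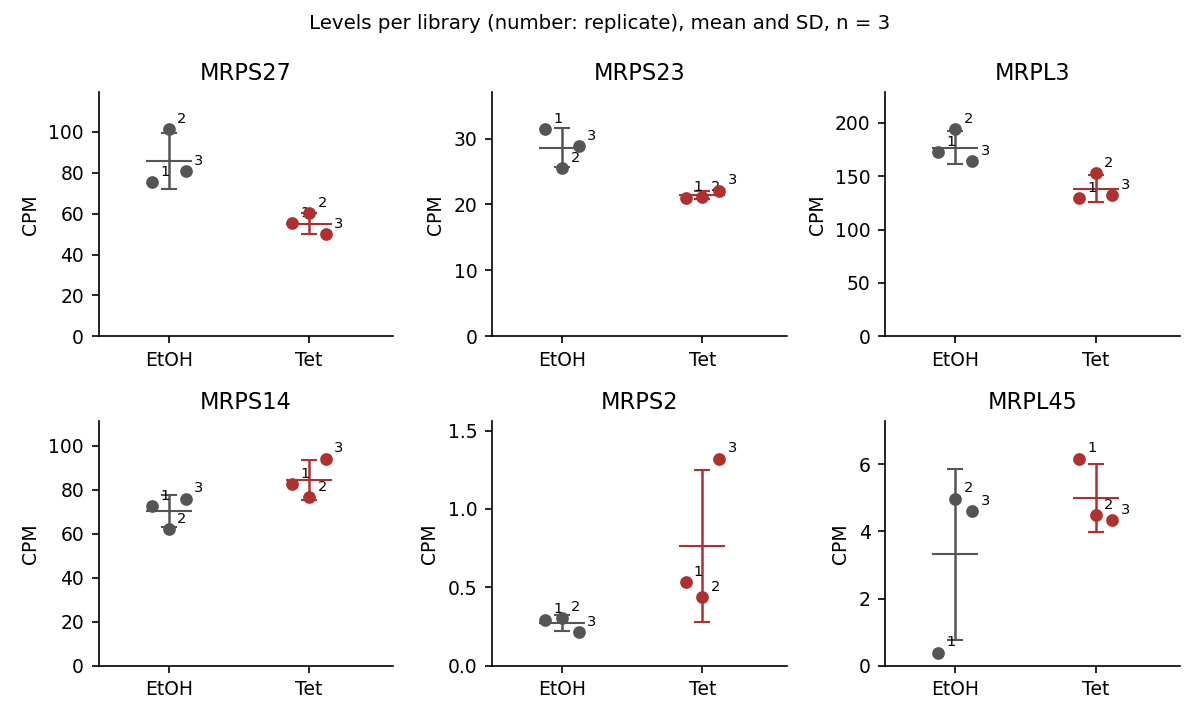
Levels of 6 members in CPM (y axis, from 0) in the 3 EtOH and the 3 Tet libraries, with the replicate number beside each point, the mean as a horizontal line and the SD as a bar. The points of *MRPS27*, *MRPS23* and *MRPL3* are lower in all Tet libraries, those of *MRPS14* and *MRPS2* higher, and *MRPL45* has 1 EtOH library at 0.391 CPM.

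Counted over the 72 members tested, 8 were lower in all Tet libraries than in all EtOH libraries, 11.1% of them against 8.29% of all genes tested. They were *MRPL3*, *MRPL30*, *MRPL47* and *MRPL50* of the large subunit and *MRPS23*, *MRPS24*, *MRPS27* and *MRPS36* of the small subunit. In the other direction there were the 2 members already named, 2.78% against 9.21% of all genes. The share of lower members was thus near the background. Their log2 fold changes were small, from -0.64 for *MRPS27* to -0.20 for *MRPL50*, a mitochondria-specific protein at 86.9, 98.4 and 91.8 CPM under EtOH and 77.9, 85.7 and 76.7 CPM under Tet. *MRPS36*, which is now known as a subunit of the 2-oxoglutarate dehydrogenase complex rather than of the ribosome, was at 14.4, 17.9 and 13.6 CPM against 11.6, 12.9 and 13.2 CPM (log2 fold change -0.29, SE 0.19, adjusted p = 0.665 in edgeR).

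As a set, the members lay slightly below 0. The fitted log2 fold change was below 0 in 52 of 72 members (72.2%), against 50.7% of all genes tested and 51.1% of the 12830 protein-coding genes tested. The median was -0.11, -0.11 in the large subunit (31 of 44 below 0) and -0.15 in the small one (21 of 28 below 0), against -0.01 over all genes tested. The library medians of the members tested, as deviations from the mean of the 6 libraries on the scale of log2(CPM + 1), were 0.08, 0.04 and -0.01 under EtOH and -0.13, -0.07 and 0.05 under Tet. The groups thus overlapped through Tet replicate 3. In the large subunit alone these library medians were 0.09, 0.00 and 0.03 under EtOH and -0.13, -0.06 and 0.08 under Tet. Within groups, their pooled SD was 0.083 in the large and 0.067 in the small subunit. These SDs are on another scale than the medians of the fitted fold changes, so their sizes cannot be compared directly. No test was made of the set. Members with bacterial relatives had a median of -0.19 in both subunits (27 large and 15 small subunit members tested, by structure), and mitochondria-specific members one of -0.03 in both (19 and 10 tested). The median SE of a member was between 0.18 and 0.28 in these classes, and a difference between them was not tested. Without Tet replicate 1 the median of the small subunit was -0.02.

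**Figure D3:**
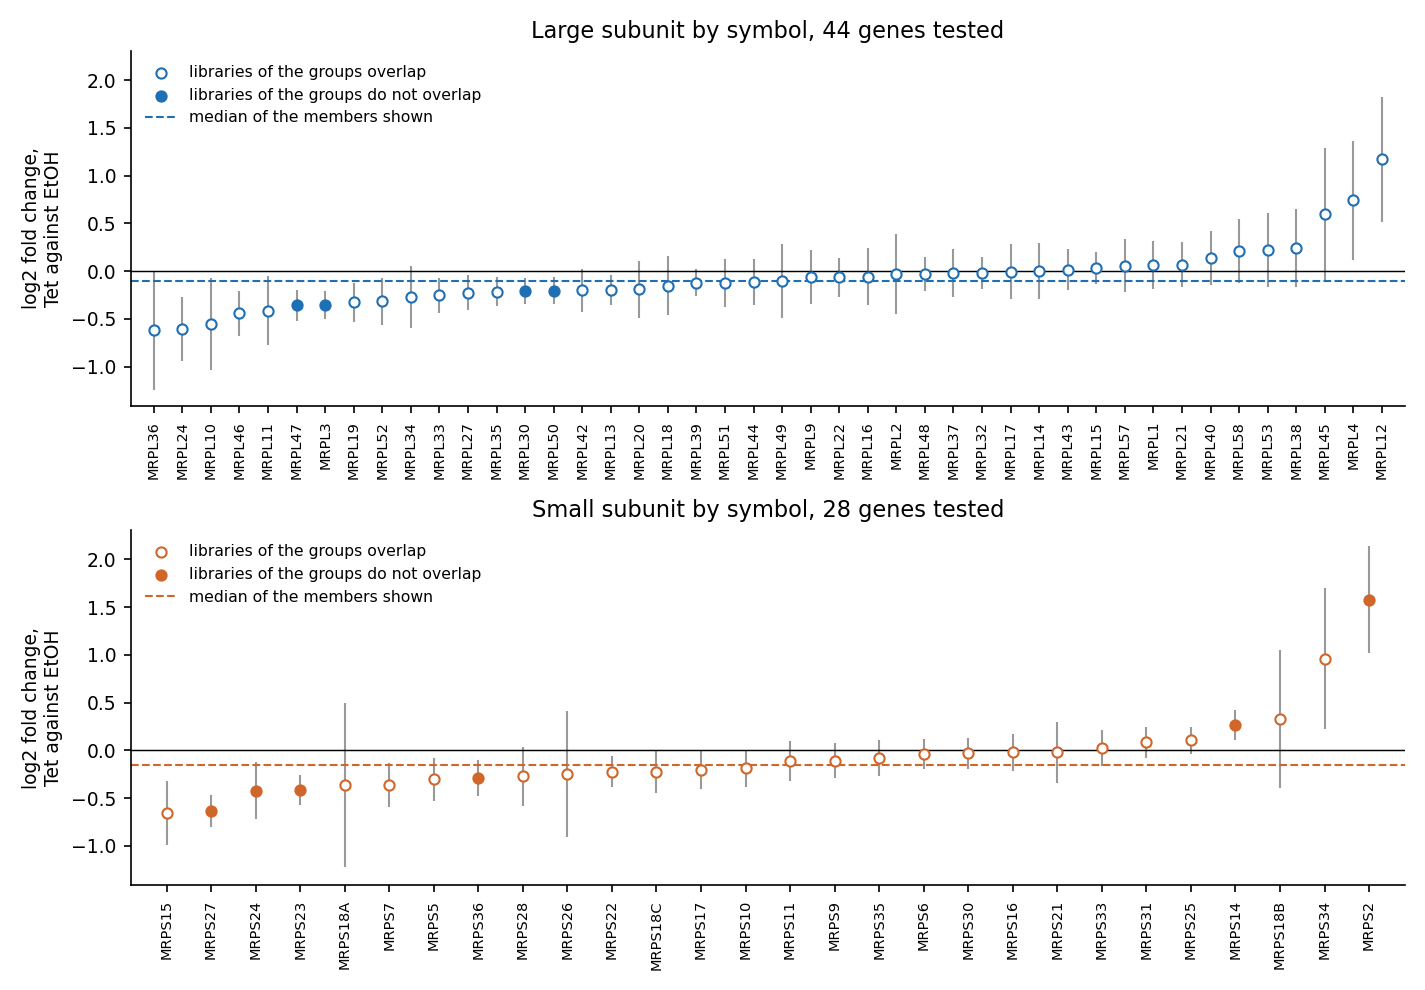
Fitted log2 fold change of each member tested, Tet against EtOH (y axis), with its SE as a bar, in the order of size for the large (44 genes) and small subunit (28 genes); filled points mark members with groups of libraries that do not overlap, and dashed lines the medians of -0.11 and -0.15. Most points lie just below 0, and the bars are widest for members with few counts, such as *MRPS18A*, *MRPS34* and *MRPL12*.

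The members with the most negative fitted values beside *MRPS27* were *MRPS15* (-0.66, SE 0.33), *MRPL36* (-0.62, SE 0.62), *MRPL24* (-0.60, SE 0.34) and *MRPL10* (-0.56, SE 0.48), all relatives of bacterial proteins, with edgeR adjusted p-values of 0.542 to 0.806. *MRPL10* anchors the stalk of the large subunit, to which *MRPL12* binds. *MRPS15* was at 35.9, 13.9 and 31.7 CPM under EtOH and 18.0, 13.9 and 19.7 CPM under Tet, so that EtOH replicate 2 was level with the lowest Tet library while the other EtOH libraries lay above all Tet libraries. Without that library the log2 fold change of *MRPS15* was -0.97 with an adjusted p of 0.027 in edgeR, within a range of 0.027 to 0.908 over all settings. The fit without that library called 361 genes higher and 331 lower of 23935 tested, many more than the main fit. *MRPL36* rested on EtOH replicate 1, at 2.93 CPM against 0.529 to 1.54 CPM in the others, and its log2 fold change was 0.21 without it. *MRPS24* was at 1.73, 1.75 and 1.85 CPM against 1.13, 1.42 and 1.42 CPM (log2 fold change -0.42, SE 0.30), but 23.2% of its exon bases are shared with a readthrough gene. *MRPL46* had a log2 fold change of -0.44 (SE 0.24, adjusted p = 0.569 in edgeR).

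Beside *MRPS2*, the 3 most positive values belonged to members rich in GC with few counts, and Tet replicate 3 stood out in them. *MRPL12*, the stalk protein of the large subunit, which is also known to bind the mitochondrial RNA polymerase, had estimated counts of 12.5, 10 and 7 in the EtOH libraries and 9.5, 12.5 and 55 in the Tet libraries. Its log2 fold change of 1.17 (SE 0.65, adjusted p = 0.582 in edgeR) was 0.17 without Tet replicate 3. *MRPS34* had counts of 16, 16.5 and 14 against 10.5, 12 and 85.5, with a log2 fold change of 0.96 (SE 0.74) that was -0.50 without Tet replicate 3. *MRPL4* had counts of 16.5, 17 and 7 against 14.5, 12 and 52, with 0.74 (SE 0.62) and -0.04 without that library. *MRPL38* (0.24, SE 0.41) also turned, to -0.14. Reads of these members cannot be told from those of overlapping genes, which hold 69.5% of the exon bases of *MRPL12*, 31.2% of *MRPS34*, 21.3% of *MRPL4* and 45.1% of *MRPL38*.

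This pattern held over the 19 members with at least 54% GC. Tet replicate 3 was the highest of the 6 libraries in 11 of them. The median deviation from the mean of the 6 libraries, on the scale of log2(CPM + 1), was 0.28 in Tet replicate 3 and between -0.13 and -0.02 in the others. These 19 members took 2.53% of the summed TPM of all members in Tet replicate 3 and between 1.43% and 1.99% elsewhere. The share of TPM taken by the 2759 protein-coding genes over 60% GC moved with it, at 0.451% in Tet replicate 3 and 0.223% to 0.260% elsewhere. At the other end, EtOH replicate 2 was the highest library in 14 of the 19 members under 42% GC, with a median deviation of 0.28. In the group of 48% to 54% GC, EtOH replicate 1 had a median deviation of 0.44 and EtOH replicate 2 one of -0.26.

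**Figure D4:**
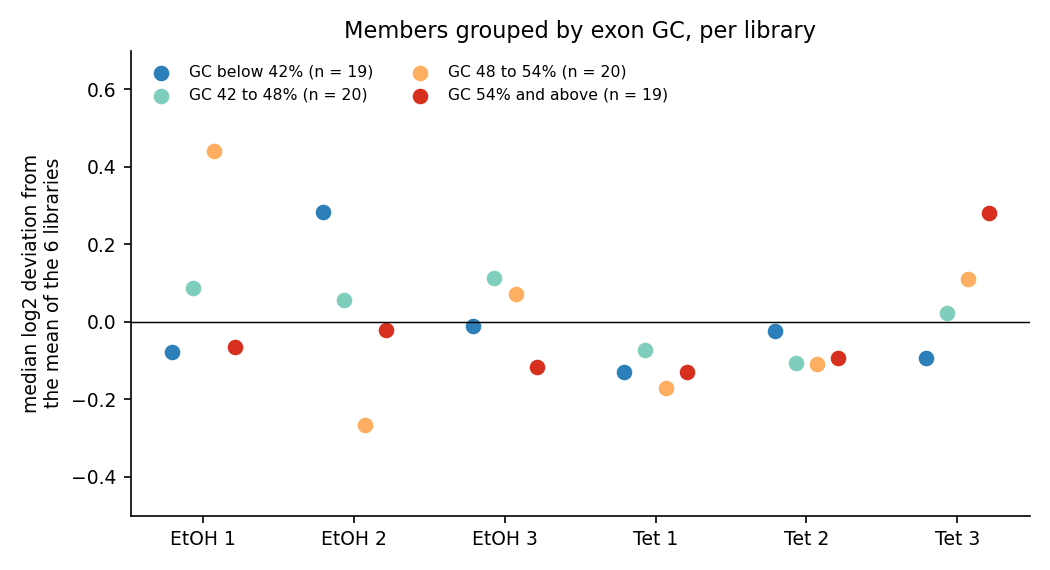
Median deviation of the members of each GC group from the mean of the 6 libraries (y axis, log2(CPM + 1) scale), per library (x axis), with 19 or 20 members per group. The GC groups spread apart in EtOH replicates 1 and 2 and in Tet replicate 3 and lie between -0.17 and -0.02 in Tet replicates 1 and 2.

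The comparison of groups differed along GC in the same way. Below 42%, from 42% to 48% and from 48% to 54% GC, the fitted log2 fold change was below 0 in 16 of 19, 16 of 20 and 16 of 20 members, with medians of -0.20, -0.11 and -0.12. With at least 54% GC it was below 0 in 4 of 13 members tested, with a median of 0.07 and a median SE of 0.56. Whether the GC of the library or the treatment accounts for the difference between these groups was not tested. A fit with an offset for GC in each library gave medians of -0.09 for the large and -0.14 for the small subunit and called no member.

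The large and small subunits were compared next by the sum of their levels. The 49 members of the large subunit summed to 1267, 1544 and 1266 TPM in the EtOH libraries and to 1173, 1197 and 1069 TPM in the Tet libraries. The 29 members of the small subunit summed to 717, 890 and 743 TPM and to 692, 713 and 677 TPM. Both sums were lower in all Tet libraries than in all EtOH libraries, by a narrow margin in the small subunit, and EtOH replicate 2 was the highest. The means were 1359 ± 160 and 1146 ± 67.9 TPM for the large subunit, and 783 ± 93.5 and 694 ± 17.9 TPM for the small one (SD, n = 3 each). Summed as CPM, without division by length, the large subunit overlapped between the groups.

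The ratio of large to small subunit was nearly the same in all libraries. It was 1.767, 1.734 and 1.703 in the EtOH libraries and 1.695, 1.679 and 1.579 in the Tet libraries. The groups did not overlap, but EtOH replicate 3 and Tet replicate 1 were nearly equal. On the log2 scale the means were 0.795 and 0.723, a difference of -0.07 that depended on the choice of members and of summary. It was 0.01 when members with over 10% of their exon bases inside other genes were left out, and 0.24 for the difference of median levels. Placed by structure, with *MRPS30* and *MRPS18A* in the large subunit and *MRPS36* left out, the ratio was 2.08 ± 0.040 and 1.99 ± 0.090 and the groups overlapped.

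**Figure D5:**
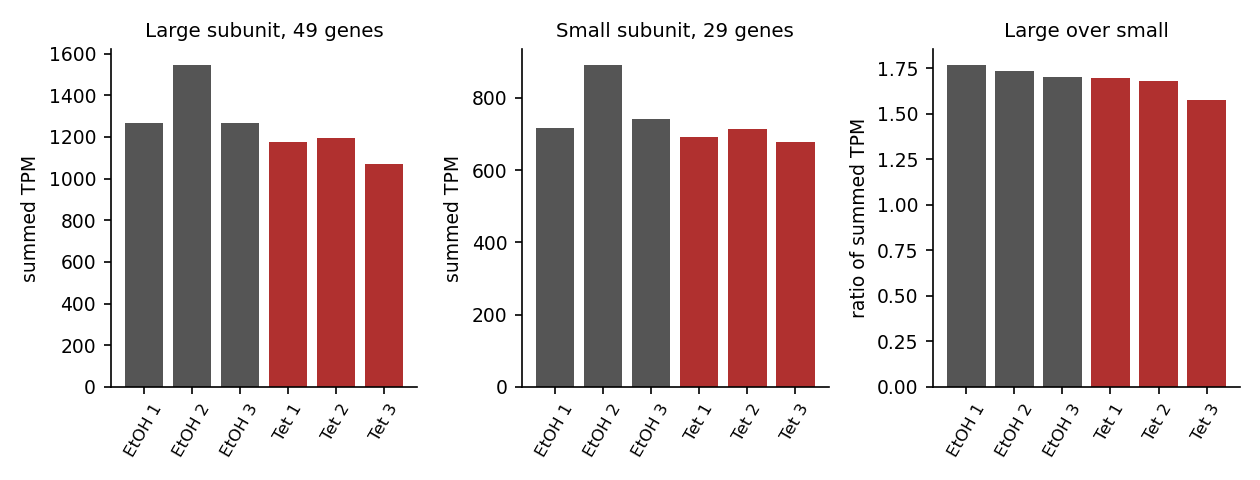
Summed level in TPM (y axis, from 0) of the 49 large subunit and the 29 small subunit members by symbol, and the ratio of the 2 sums, for each of the 6 libraries (grey, EtOH; red, Tet). EtOH replicate 2 has the highest sums, and the ratio stays between 1.58 and 1.77.

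*MRPL45*, a mitochondria-specific protein that ties the large subunit to the inner membrane (chr17:38297023-38323217), behaved unlike the other members, and was looked at after its values had been seen. It was at 0.391, 4.98 and 4.595 CPM in the EtOH libraries and at 6.17, 4.48 and 4.33 CPM in the Tet libraries. EtOH replicate 1 was thus more than 5-fold below each other library, with an estimated count of 14 against 138 to 174. Of 13265 genes with a median over 2 CPM, *MRPL45* was the only one in EtOH replicate 1 that was more than 5-fold below all other libraries; there were 4 such genes in EtOH replicate 2, 2 in Tet replicate 2 and 0 in the others, none of them a member. The cause was not tested. The log2 fold change of *MRPL45* was 0.59 (SE 0.69) with that library and 0.04 without it.

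For the remaining members picked for their known roles, the libraries of the groups overlapped. *MRPL44*, which has an RNase III fold, had means of 17.4 ± 4.18 and 16.1 ± 3.42 CPM, which differed by -0.11 (SE 0.24) on the log2 scale. *MRPL58*, a peptidyl-tRNA hydrolase that frees stalled ribosomes, was at 4.12 ± 0.994 and 4.76 ± 1.72 CPM (0.21, SE 0.34). *MRPS16* and *MRPS22*, both known from inherited defects of the respiratory chain, had log2 fold changes of -0.02 (SE 0.20) and -0.22 (SE 0.16). *MRPS30* was at 151.9 ± 24.7 and 148.6 ± 11.04 CPM, and *MRPS18C* at 86.3 ± 25.6 and 73.9 ± 10.8 CPM. *MRPS12*, with 24 counts in all, was not tested.

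Some members lie beside other genes of the mitochondrion. A protein-coding gene on the opposite strand started within 1000 bases before the start of 17 of 78 members (21.8%), compared with 1691 of 19946 protein-coding genes (8.48%). *MRPL36* and *MRPL47* share such a region with *NDUFS6* and *NDUFB5*, subunits of complex I, and *MRPS12* with *SARS2*, the mitochondrial seryl-tRNA synthetase. *MRPL46* and *MRPS11* are both members, 1 of each subunit, and start 63 bases apart. Their levels were 4.10 TPM each, although their exon GC was 40.9% and 49.1%, and their log2 fold changes were -0.44 and -0.11. The 62 bases that separate the 2 starts are shown as the shortest region between members of both subunits (chr15:88467391-88467452, GRCh38, strand of *MRPS11*, G and C in capitals).
MRPL46 to MRPS11: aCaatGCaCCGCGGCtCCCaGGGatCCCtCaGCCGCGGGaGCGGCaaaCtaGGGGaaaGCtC

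The 250 bases before the RefSeq start of a gene (GRCh38.p14) were found for 69 members and searched on both strands for 3 motifs, none of which contains another. The E-box CACGTG, the motif bound by MYC proteins, was present in 6 of 69 members (8.70%) and in 7.85% of 15328 protein-coding genes. The half-site TGCGCA of NRF1, a regulator of nuclear genes for mitochondria, was present in 13 members (18.8%) and in 9.15% of protein-coding genes. The ETS site CCGGAAGT, bound by factors such as GABP, was present in 9 members (13.0%) and in 5.19%. The E-box was in 5 of 42 large and 1 of 27 small subunit members. A match describes letters only. The windows of 3 members are shown with matches in capitals, because they hold, in turn, an E-box with an NRF1 half-site, an ETS site, and no match in a member that had one of the smallest p-values.
MRPL22 (chr5:154940823-154941072, plus strand): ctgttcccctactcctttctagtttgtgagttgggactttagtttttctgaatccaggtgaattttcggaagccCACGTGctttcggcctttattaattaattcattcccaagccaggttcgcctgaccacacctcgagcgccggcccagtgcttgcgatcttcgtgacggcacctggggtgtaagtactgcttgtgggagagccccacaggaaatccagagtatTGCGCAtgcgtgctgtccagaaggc
MRPL20 (chr1:1407294-1407543, minus strand): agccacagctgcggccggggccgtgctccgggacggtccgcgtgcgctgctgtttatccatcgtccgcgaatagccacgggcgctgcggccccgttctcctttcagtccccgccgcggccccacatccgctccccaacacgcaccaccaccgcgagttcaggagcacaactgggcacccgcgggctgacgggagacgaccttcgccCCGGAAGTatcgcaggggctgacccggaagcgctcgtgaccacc
MRPS23 (chr17:57850045-57850294, minus strand): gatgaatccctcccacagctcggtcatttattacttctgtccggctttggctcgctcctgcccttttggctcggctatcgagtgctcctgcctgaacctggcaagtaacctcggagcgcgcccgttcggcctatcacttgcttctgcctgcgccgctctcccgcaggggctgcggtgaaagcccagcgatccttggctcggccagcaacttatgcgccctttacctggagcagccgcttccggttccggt
*MRPL22* was at 17.3, 26.9 and 21.1 CPM under EtOH and 19.2, 23.4 and 19.8 CPM under Tet (log2 fold change -0.07, SE 0.21). *MRPL20* was at 2.82, 2.38 and 1.92 CPM against 1.70, 2.17 and 2.37 CPM (-0.19, SE 0.30). Neither group of libraries was apart from the other in these 2 genes, while *MRPS23* had no overlap, as described.

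Proteins of the mitochondrial ribosome with other symbols were listed separately, and 0 of 5 were called. *PTCD3* of the small subunit was at 256.8, 252.1 and 263.0 CPM under EtOH and 207.3, 208.9 and 193.1 CPM under Tet, with little spread and no overlap (log2 fold change -0.34, SE 0.13, adjusted p = 0.393 in edgeR). *DAP3*, the GTP-binding protein of the small subunit, was at 93.8 ± 14.6 and 79.3 ± 7.15 CPM (-0.24, SE 0.17), and *CHCHD1* at 14.4 ± 5.33 and 16.6 ± 2.77 CPM. *AURKAIP1* (67.3% GC) and *GADD45GIP1* (60.2% GC) were near the floor and highest in Tet replicate 3, at 1.64 and 2.09 CPM, with log2 fold changes of 1.14 (SE 0.49, adjusted p = 0.455 in edgeR) and 0.52 (SE 0.49). They followed the pattern of the members rich in GC.

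*MT-RNR1*, the RNA of the small subunit, was at 18.7, 15.6 and 11.7 CPM under EtOH and 25.1, 34.1 and 31.2 CPM under Tet. All Tet libraries were higher (log2 fold change 0.97, SE 0.22, adjusted p = 0.142 in edgeR), though not past the threshold. *MT-RNR2*, the RNA of the large subunit, was at 42.5 ± 15.6 and 54.8 ± 20.4 CPM (0.37, SE 0.33, adjusted p = 0.778 in edgeR). Ribosomal RNA had been depleted enzymatically before sequencing, and the part of that step in these values was not tested.

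Factors that build and serve the mitochondrial ribosome gave a like picture. Of 27 assembly factors, 25 were tested, 18 were below 0 (median -0.12) and 0 were called. *NOA1*, a GTPase needed to assemble the small subunit, had the smallest adjusted p of them, at 35.5, 30.7 and 32.8 CPM under EtOH and 23.5, 22.4 and 20.0 CPM under Tet (log2 fold change -0.59, SE 0.16, adjusted p = 0.205 in edgeR). Of 17 translation factors, 13 were below 0 (median -0.09) and 0 were called. *MRRF*, the ribosome recycling factor, was at 67.5, 54.1 and 64.96 CPM against 48.5, 44.5 and 46.0 CPM (-0.42, SE 0.15, adjusted p = 0.354 in edgeR). *TUFM*, the elongation factor that brings aminoacyl-tRNA (57.8% GC), was at 0.97 to 2.14 CPM in 5 libraries and at 7.02 CPM in Tet replicate 3 (1.19, SE 0.56, adjusted p = 0.499 in edgeR). Of 9 genes of mitochondrial transcription and DNA maintenance, 8 were below 0 (median -0.21) and 0 were called, among them *TFAM* (-0.26, SE 0.36), while *POLRMT*, the mitochondrial RNA polymerase, was at 0.47 (SE 0.57).

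Of 8 regulators of mitochondrial biogenesis, 1 passed the threshold. *PPARGC1B*, a coactivator of genes for mitochondria, was at 12.7, 15.8 and 12.5 CPM in the EtOH libraries and at 5.18, 4.74 and 5.39 CPM in the Tet libraries. It fell from 13.7 ± 1.85 to 5.10 ± 0.330 CPM (SD, n = 3 each), with a log2 fold change of -1.42 (SE 0.20, adjusted p = 0.043 in edgeR). The call of *PPARGC1B* was lost when EtOH replicate 1, EtOH replicate 3 or any single Tet library was left out, with adjusted p-values in edgeR of 0.153 to 0.310, and with the GC offset (0.055), while its log2 fold change stayed between -1.51 and -1.30. Its relative *PPARGC1A* was at 57.7 ± 23.0 and 83.9 ± 12.6 CPM (0.54, SE 0.30, adjusted p = 0.580 in edgeR), *NRF1* at 9.53 ± 1.003 and 9.78 ± 1.77 CPM, and *GABPA* at 89.0 ± 7.02 and 77.5 ± 6.88 CPM. Of 17 genes of proliferation, 15 were below 0 with a median of -0.27, on the same side as the members, and 0 were called. The part of proliferation in the values of the members was not tested.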

How the data were processed

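Total RNA of 6 neuroblastoma cell cultures, depleted of ribosomal RNA by enzymatic digestion, had been sequenced as stranded paired-end libraries. The deposited values are estimated counts per gene made by the authors. Per the file headers, featureCounts 1.6.4 counted unique alignments over exons without a strand option and divided a read pair between overlapping genes, which leaves 12.3% to 14.7% of genes with values that are not whole. The submitters' processing notes name STAR 2.7.1a, featureCounts 1.5.1 and GRCh38. Reads of near-identical copies are lost under such counting, and reads of overlapping or antisense genes cannot be told apart.

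Counts were rounded, since whole counts had been assumed when the tests were chosen. edgeR 4.0.16 (R 4.3.3) was used with filterByExpr, TMM scaling, the quasi-likelihood test and Benjamini-Hochberg (BH) adjustment across the 22443 genes that passed the filter, and 0.05 was the threshold. Every adjusted p is from this fit unless another is named. CPM were scaled by TMM, and TPM were computed from counts and exon length. Groups came from the titles. P-values measure the spread between libraries, which may be technical. Exons and their lengths were those given with the deposited counts, and exon GC was taken over them on GRCh38. Gene types came from GENCODE 44, in which 53026 of 60651 identifiers had the same version. Symbols came from a list of gene names, or from GENCODE 44 where that list had none. All 92 spike-in rows were at 0. The statistical scripts were tested on simulated data. DESeq2 1.42.0, limma-voom (limma 3.58.1), other scalings, filters, offsets for GC and exon length, removal of the mitochondrial genome, thinning, a replicate block and leaving out each library were tried as alternatives.

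The members and lists were chosen with earlier results of these data known. Members were named by a rule: in each subunit the 4 highest and the 2 lowest levels, the 4 most positive and the 4 most negative fold changes, every member past the threshold, and 11 members fixed for their roles. The limits of the GC groups, and *MRPL1*, *MRPL20*, *MRPL22*, *MRPL30*, *MRPL41*, *MRPL50*, *MRPL51*, *MRPS11*, *NOA1*, *MRRF*, *PPARGC1A*, *NRF1* and *GABPA*, were chosen outside that rule, after values had been seen. Intervals were not computed, and the floor of 3 counts covers counting error only.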

Additional observations from a re-analysis of the deposited data

How the results depend on the processing

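No member was called higher under any alternative. Of members called lower there was 1 with the replicate block, *MRPS27* (log2 fold change -0.63, edgeR adjusted p = 0.030, the lowest over its settings, of which the highest was 0.60), and 0 to 1 when a library was left out, the 1 being *MRPS15* without EtOH replicate 2. The deviations of same-numbered libraries correlated at 0.06, 0.51 and 0.22 on the log2 CPM scale with a prior count of 2, and at 0.10, 0.62 and 0.34 on that of log2(CPM + 1), and 3 of 6 libraries correlated best with their own number. A limit of 0.1 for every pair is thus passed on 1 of these scales, and the labels tie the numbers to nothing, so whether they are a pairing is not settled. With the replicate block the medians were -0.07 in the large and -0.14 in the small subunit. The difference in the log2 ratio of subunits was -0.07, which a block cannot change in a balanced design, so it is no check. The median of the small subunit ranged from -0.21 to -0.019 when a library was left out, that of the large one from -0.16 to -0.06, and the log2 ratio from -0.09 to -0.04. The log2 ratio was 0.24 as a difference of medians and 0.0073 without members sharing over 10% of their exon bases. Over all genes, 33 higher and 20 lower calls became 185 and 117 with no filter, 282 and 203 with DESeq2, 421 and 254 with the replicate block, and 73 and 48 with the GC offset. Lower calls were 13 with RLE size factors and 12 with the exon length offset. Leaving out a library gave 0 to 361 higher and 0 to 331 lower calls, the most without EtOH replicate 2.

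With the GC offset the log2 fold change turned to -0.081 for *MRPL38* and to 0.010 for *MRPS16*. When a library was left out, it turned in some fits for *MRPL18* (-0.40 to 0.32), *MRPL36* (-1.06 to 0.21), *MRPL38* (-0.14 to 0.48), *MRPL4* (-0.044 to 1.08), *MRPL44* (-0.29 to 0.0034), *MRPL58* (-0.081 to 0.43), *MRPS10* (-0.35 to 0.037), *MRPS16* (-0.15 to 0.11), *MRPS18A* (-2.30 to 0.10), *MRPS18B* (-0.15 to 1.59), *MRPS18C* (-0.40 to 0.050), *MRPS30* (-0.16 to 0.10), *MRPS34* (-0.50 to 1.36) and *MRPS35* (-0.22 to 0.040). The cause was not tested. Depth limits the 6 members that were not tested and those with few counts.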

Other observations

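The 86 genes with MRPL or MRPS symbols that are not protein-coding summed to between 52.3 and 61.2 CPM, against 2218 to 2880 CPM for the members, and 41 of them were at 0 in all libraries. The highest was the divergent transcript *MRPS30-DT*, with a mean of 18.3 CPM.

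The cytosolic ribosome was less even between libraries than the mitochondrial one. Of its 86 proteins 83 were tested, 65 were below 0 with a median of -0.48, and 0 were called by edgeR. In all Tet libraries 8 were lower (9.64%, against 8.29% of all genes tested), and 15 had an unadjusted p under 0.05 (18.1%, against 10.8%). Summed, they were at 12210, 5592 and 9980 CPM under EtOH and 6042, 5451 and 7279 CPM under Tet, so that EtOH replicate 2 lay with the Tet libraries. Of 89 subunits of the respiratory chain and ATP synthase 83 were tested, 49 were below 0 with a median of -0.04, and 0 were called by edgeR, with 3 at an unadjusted p under 0.05 (3.61%, against 10.8% of all genes tested).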
